A study of Arabidopsis thaliana with 15 samples.

Results

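The step from early to middle precursors of the stomatal lineage of Arabidopsis thaliana was examined by comparing 2 cell populations, each sorted by fluorescence and measured on 3 ATH1 arrays, 6 of the 15 arrays of the series. Early precursors came from the line SPCHp::SPCH-YFP, in which the SPCH promoter drives SPCH fused to YFP, and are labelled as the mother cells of meristemoids together with young meristemoids. Middle precursors came from MUTEp::nucGFP, in which the MUTE promoter drives a nuclear GFP, and are labelled as older meristemoids with newly formed guard mother cells. Both lines are in the Col background, and both were grown for 14 days at 25 °C on 1% sucrose with 16 light hours and 8 dark hours a day. Protoplasts were released from shoots in 2 hours, and 2000 to 20000 cells were sorted for each replicate. The arrays were chosen by their titles, and all 20956 probe sets were compared. The other populations were the epidermis (ML1p::YFP-RCI2A), late precursors (FAMAp::GFP-FAMA) and mature guard cells (the enhancer trap E1728::GFP), grown and sorted in the same way, with 3 arrays each. Each population is its own reporter line, so an effect of the line and one of the stage cannot be told apart. The SPCH-YFP transgene carries SPCH coding sequence and can add to the SPCH signal of early precursors, while neither of the compared lines carries a FAMA transgene.

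Stomata form through a short series of divisions in the leaf epidermis. The basic helix-loop-helix protein SPCH starts the lineage and drives the asymmetric divisions of meristemoids, MUTE ends those divisions and turns a meristemoid into a guard mother cell, and FAMA acts at the last division, which makes the pair of guard cells. Each works with a SCREAM partner of the same protein family, while secreted peptides and their receptors space the stomata.

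Levels are given on the log2 scale of the deposited values, on which the 15 array medians lay between 2.52 and 2.68. Means of 2.68 or less are called near the background, and folds against them are lower bounds, written "at least". The early arrays varied more than those of the other groups. Their residual standard deviation (SD) around the group means was 0.658, against 0.282 in middle precursors and 0.295 to 0.383 in the other 3 populations. Across probe sets, Pearson's r between early replicates was 0.82 for 1 and 2, 0.867 for 1 and 3 and 0.849 for 2 and 3, and between middle replicates it lay between 0.974 and 0.982. Early replicate 3 stood closest to the middle arrays, with r from 0.913 to 0.917, against 0.862 to 0.866 for replicate 1 and 0.845 to 0.849 for replicate 2. The labels do not say whether replicates came from separate cultures, so p-values measure the spread between these arrays, which may be technical.

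Far more probe sets passed the test as higher in middle precursors than as lower. Of 20956 probe sets, 362 differed (1.73%), with 318 higher (1.52%) and 44 lower (0.21%), in limma's moderated test on the 6 arrays with a Benjamini-Hochberg adjusted p under 0.05. The higher share of these calls was 87.8%, or 73.4% after cyclic loess, which moved the median difference of all probe sets from -0.11 to -0.02 and that of all genes from -0.15 to -0.04. All 362 had the 3 arrays of a group above the 3 of the other, as had 12.1% of all probe sets in the higher direction and 19.2% in the lower one. A log2 difference of 2 or more in size, rounded to 2 decimals, was found for 148 of the higher and 19 of the lower probe sets. These counts do not apply the bound for means near the background. For 69 of the higher probe sets the early mean was near the background. A single gene was listed for 12783 probe sets, which cover 12669 genes, and of these genes 139 were higher (1.1%) and 29 lower (0.229%). The annotation used here lists no gene for 193 of the 362, so these could not be named. Leaving out middle replicate 1, 2 or 3 reduced the count to 24, 33 or 1, and leaving out early replicate 1, 2 or 3 gave 395, 446 or 959. All 15 arrays in 1 model, in which the spread is pooled over the 5 groups, gave 1146 higher (5.47%) and 845 lower (4.03%).

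**Figure D1:**
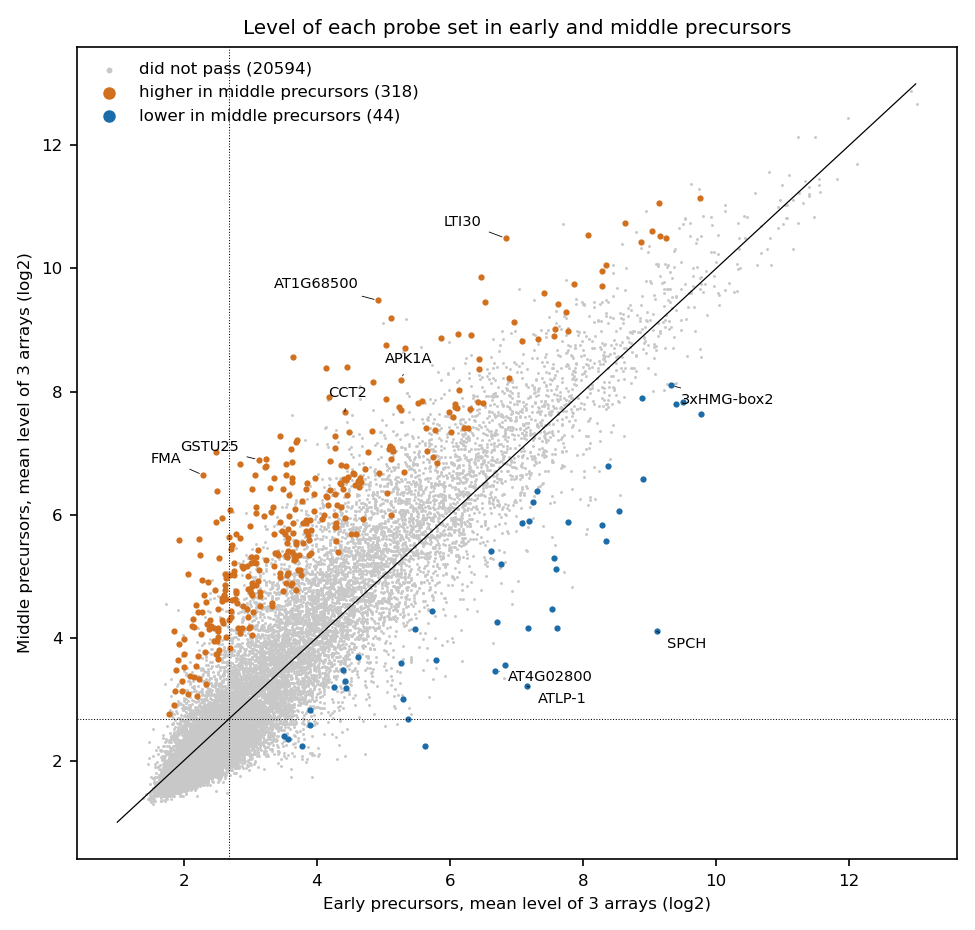
Mean log2 level of each of 20956 probe sets in early (x axis) and middle (y axis) precursors, over 3 arrays each. Orange points are the 318 that passed as higher in middle precursors, blue points the 44 that passed as lower, grey points the rest; the diagonal marks equal levels and the dotted lines mark 2.68, the bound for near the background. SPCH lies far below the diagonal, and FMA lies above it with an early mean left of the dotted line.

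The lineage regulators that define the sorts were taken first. SPCH is not an independent check of the early label, because the SPCH-YFP transgene can add to its signal there. SPCH stood at 9.19, 9.15 and 9.0 on early arrays 1 to 3 and at 3.52, 4.0 and 4.77 on middle arrays 1 to 3. Every early array lay far above every middle array. SPCH fell by 5.01 on the log2 scale (SE 0.32, adjusted p = 0.00487, limma), or 32.3-fold, and it passed also without any one of the 6 arrays. FAMA, listed as FMA, stood at 2.32, 1.90 and 2.66 in early precursors, near the background, and at 6.5, 6.47 and 6.93 in middle precursors. The groups did not overlap, and FMA was 4.34 higher in middle precursors (SE 0.25, adjusted p = 0.00428, limma), at least 15.6-fold. Without middle replicate 3 its adjusted p was 0.0503, with a difference of 4.20. MUTE, whose promoter marks the middle sort, was near the background in both groups. It read 1.69, 1.68 and 1.70 in early precursors and 2.41, 1.92 and 2.78 in middle precursors. The 3 middle values all lay above the early ones, but the difference did not pass (adjusted p = 0.207, limma), so MUTE does not mark the middle sort clearly on these arrays.

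Only 5 of the 27 lineage genes looked for had a probe set listed to them alone in the annotation used here. Genes with such a probe set are called measured. The rest may lie among the 8136 probe sets with no gene listed. Of the 5, the 2 not yet described did not pass either. ATBRXL2, a relative of the BREVIS RADIX protein, stood at 3.74, 5.79 and 5.85 in early precursors and at 3.08, 3.30 and 3.54 in middle precursors. The groups did not overlap, yet early replicate 1 lay near the middle arrays, and the difference of -1.82 (SE 0.58) had an adjusted p of 0.182 in limma. Without early replicate 1 it was -2.51 with an adjusted p of 0.0178, and in the 15-array model the adjusted p was 0.0292. STOMAGEN, a secreted peptide that promotes stomatal formation and is made in the mesophyll, was near the background in both groups, with values between 1.69 and 2.18.

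Markers of other cells were uneven among the early arrays, and the guard cell markers were uneven among the middle arrays too. Of the guard cell list, 3 genes were measured, and its mean level was 5.08, 3.17 and 2.93 on the early arrays and 4.21, 5.44 and 4.34 on the middle arrays. CHX20, which exchanges cations for protons in guard cells, read 6.46, 4.88 and 4.79 in early precursors and 6.42, 8.11 and 6.81 in middle precursors. The groups overlapped, and the difference of 1.74 (SE 0.61) did not pass (adjusted p = 0.211, limma). The locus AT1G22690 read 6.99, 2.73 and 2.28 in early precursors against 3.97, 6.12 and 4.23 in middle precursors. Early replicate 1 was thus the highest of all 6 arrays for this guard cell marker, and the difference of 0.77 (SE 1.33) would be 2.27 without it. Among the middle arrays, replicate 2 was the highest for both CHX20 (8.11) and AT1G22690 (6.12). AT4G14480, which is BLUS1, a kinase of blue light signalling in guard cells, was near the background in both groups. TRY, an inhibitor of trichome fate, read 2.57, 6.61 and 2.32 in early precursors and 1.91 to 2.00 in middle precursors. Only early replicate 2 held it clearly above the background, and the difference of -1.87 (SE 1.13) had an adjusted p of 0.375 in limma. PHV, a homeodomain leucine zipper protein of vascular and leaf polarity patterning, and CLV3, the signal peptide of the shoot meristem, were near the background in both groups. The 23 genes of the nuclear photosynthesis list were taken to stand for mesophyll, and whether they are specific to it was not tested. They averaged 5.74, 5.0 and 6.33 on the early arrays and 6.0, 5.95 and 6.13 on the middle arrays, and 0 of them passed. The part of these other cells in the differences below was not tested.

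**Figure D2:**
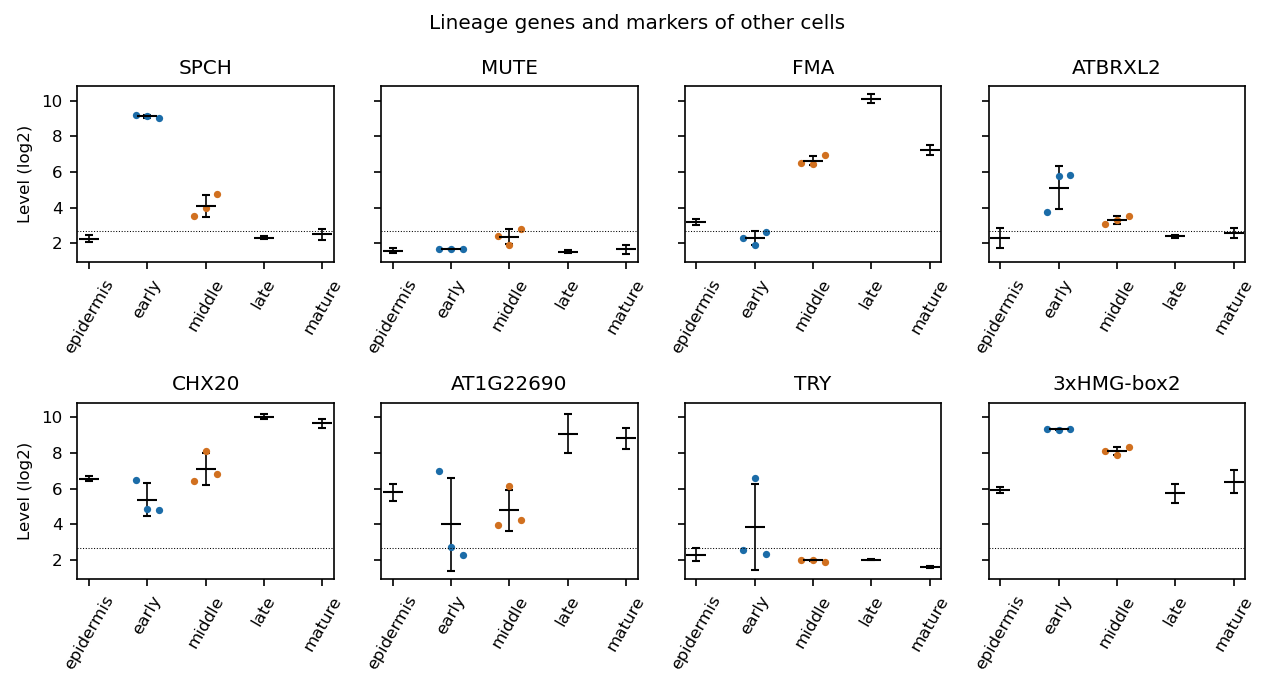
Log2 level of 8 genes in the 5 populations. Points are single arrays of early (blue) and middle (orange) precursors in replicate order, horizontal bars are group means and error bars the SD (n = 3); the dotted line marks 2.68. SPCH falls and FMA rises between early and middle precursors without overlap, whereas AT1G22690 is high on early array 1 and TRY on early array 2.

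After FMA, the greatest rises among genes with a symbol that passed the test were those of GSTU25, LTI30, GT72B1 and CCT2. GSTU25, a glutathione transferase of the tau class, stood at 2.84, 3.73 and 2.83 in early precursors and at 6.94, 7.13 and 6.58 in middle precursors. It was 13.5-fold higher in middle precursors (log2 difference 3.75, SE 0.30, adjusted p = 0.00917, limma). LTI30, a dehydrin that accumulates in cold and drought, stood at 7.71, 6.02 and 6.80 against 10.37, 10.53 and 10.58, a 12.6-fold rise (3.65, SE 0.42, adjusted p = 0.0182). The middle arrays of LTI30 lay within a narrow band, and its early arrays were spread over more than 1 log2 unit. GT72B1, a glycosyltransferase that conjugates pollutants and lignin precursors, stood at 1.97, 2.24 and 3.89 against 5.70, 6.43 and 6.07 (3.37, SE 0.53, adjusted p = 0.0419). CCT2, which makes CDP-choline for phosphatidylcholine, stood at 4.29, 3.64 and 5.32 against 8.01, 7.38 and 7.61 (3.25, SE 0.44, adjusted p = 0.0272). For both genes early replicate 3 was the early array nearest to the middle ones.

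Other rises were smaller in size but at times tighter. WES1, also called GH3.5, an enzyme that joins auxin and salicylate to amino acids, had the smallest SE of the named genes. It read 3.03, 3.01 and 2.93 in early precursors and 5.81, 5.83 and 5.78 in middle precursors, a 7.05-fold rise (2.82, SE 0.13, adjusted p = 0.00428, limma) whose adjusted p without middle replicate 3 was 0.0503. APK1A, a protein kinase, rose 7.55-fold (5.52, 5.61 and 4.70 against 8.13, 8.20 and 8.24, adjusted p = 0.0112). MAP1B, a methionine aminopeptidase, rose 7.45-fold (4.12, 3.71 and 3.06 against 6.45, 6.46 and 6.68, adjusted p = 0.0136). In both of these the middle arrays lay within a narrow band and the early arrays varied over about 1 log2 unit. JAL34, a lectin of the jacalin family, rose 7.28-fold (4.56, 4.38 and 4.53 against 7.64, 6.43 and 7.99, adjusted p = 0.0311), and here the spread lay in the middle arrays. HL, the HAL2-like phosphatase of sulfur metabolism, rose 5.48-fold (3.01, 2.63 and 2.62 against 5.38, 5.42 and 4.82, adjusted p = 0.0113). That no early array was as high as a middle array was a condition for naming these 10 genes by size.

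Of the 1523 genes with a symbol, 24 were higher and 9 lower. Among the other higher genes, picked out after their values were seen, were both GAPC2 and TPI, glycolytic enzymes of the cytosol. GAPC2 stood at 5.44, 5.8 and 5.67 against 7.56, 7.13 and 7.52 (1.77, SE 0.19, adjusted p = 0.0157, limma). TPI stood at 8.97, 9.40 and 9.12 against 10.64, 10.36 and 10.58 (1.37, SE 0.18, adjusted p = 0.0263). TPI was thus already high in early precursors. ATCOAE, the kinase of the last step of coenzyme A synthesis, was 5.41-fold higher (adjusted p = 0.00944), BIGYIN, a fission factor of mitochondria and peroxisomes, 4.37-fold (0.019), and SEC10, a subunit of the exocyst, 3.37-fold (0.0147).

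Few genes with a symbol passed as lower, and of these 9 all but SPCH and ATLP-1 fell by less than 4-fold. ATLP-1, a thaumatin-like protein, stood at 7.58, 7.26 and 6.66 in early precursors and at 3.80, 2.77 and 3.06 in middle precursors. It fell 15.5-fold (log2 difference -3.95, SE 0.35, adjusted p = 0.0107, limma), and middle replicate 2 was close to the background. 3xHMG-box2, an HMG-box protein that binds mitotic chromosomes, stood at 9.32, 9.28 and 9.36 against 8.08, 7.90 and 8.32. It remained high in middle precursors after a 2.33-fold fall (-1.22, SE 0.16, adjusted p = 0.0272). TPLATE, a subunit of the endocytic adaptor that also serves the growing cell plate, read 6.54, 6.69 and 6.59 against 5.41, 5.66 and 5.13 (-1.21, SE 0.18, adjusted p = 0.0388). nad9, a mitochondrion-encoded subunit of respiratory complex I, read 7.16, 7.29 and 6.83 against 5.74, 5.98 and 5.89 (-1.22, SE 0.18, adjusted p = 0.0355). In each of these genes the groups were separated by more than the spread within either.

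UBC22, a ubiquitin-conjugating enzyme, and MED19A, a subunit of the Mediator complex of transcription, also fell, by 1.29 (SE 0.21, adjusted p = 0.0471) and by 1.06 (SE 0.17, adjusted p = 0.0457) in limma. UBC22 read 7.46, 6.84 and 7.27 against 6.08, 5.79 and 5.84, and MED19A read 7.31, 7.02 and 7.43 against 6.30, 6.07 and 6.23. These were the only named calls that did not pass in the 15-array model, with adjusted p = 0.0912 for UBC22 and 0.135 for MED19A. That model also uses groups that varied less than the early arrays, so it can understate the error. RR16, a response regulator of cytokinin signalling, and AGL80, a MADS-box factor known from the central cell of the ovule, fell to near the background. RR16 read 3.31, 3.87 and 3.51 against 2.26, 2.34 and 2.49, a fall of at least 1.85-fold (adjusted p = 0.0442). AGL80 read 3.48, 3.54 and 3.47 against 2.59, 2.41 and 2.21, at least 1.77-fold lower (adjusted p = 0.0343). Both were thus low in early precursors too. Of all falls with a symbol, only SPCH and ATLP-1 passed with a filter on probe sets near the background. The same held with a mean-variance trend and robust prior. The other falls had adjusted p from 0.0508 to 0.0766 and from 0.0655 to 0.163 in these fits (limma).

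**Figure D3:**
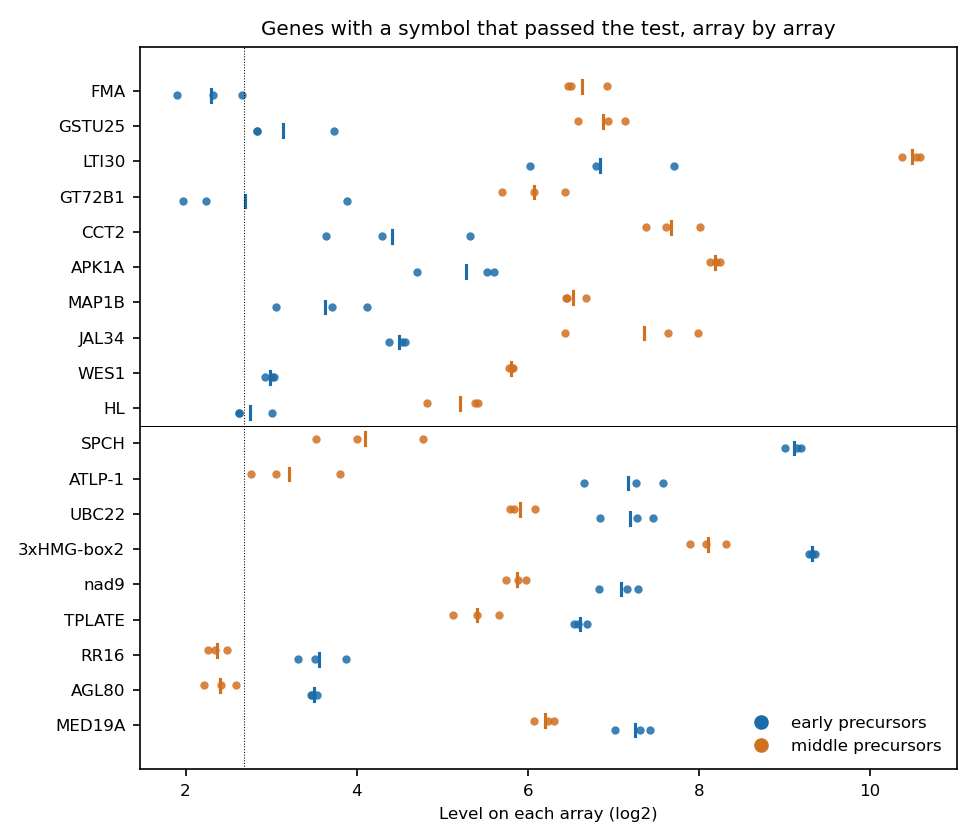
Log2 level on each array for the 10 rises and 9 falls named by size among genes with a symbol. Points are single arrays, blue for early and orange for middle precursors, short bars are group means and the dotted line marks 2.68. Genes with overlapping groups were left out by the naming rule, and the early points spread more widely than the middle ones in most rises.

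Some of the greatest differences were in genes known here by locus code only. AT1G68500 stood at 4.52, 4.53 and 5.70 in early precursors and at 9.29, 9.60 and 9.54 in middle precursors, 23.6-fold higher (4.56, SE 0.35, adjusted p = 0.00869, limma). AT3G17020 was 15.7-fold higher, AT5G19440 13.1-fold and AT4G02940 12.7-fold, with adjusted p-values of 0.0272, 0.0153 and 0.0147. AT4G33540 rose from near the background to 4.97, 5.89 and 5.89, at least 7.5-fold (adjusted p = 0.00869). On the other side, AT4G26660 stood at 6.94, 7.19 and 6.35 against 4.07, 2.44 and 4.17 (-3.27, SE 0.51, adjusted p = 0.0417). AT4G02800 fell 9.34-fold (adjusted p = 0.026) and AT1G63100 fell 6.83-fold (adjusted p = 0.0143). AT2G16270 ended near the background, at least 6.46-fold lower (adjusted p = 0.0408), and AT3G51720 fell 5.65-fold (adjusted p = 0.0243). A lack of overlap between groups was a condition for naming these 10 loci.

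Gene lists of pathways held 425 measured genes, of which 10 were higher and 5 lower in middle precursors (3.53%, against 1.33% of all 12669 genes). The lists were chosen with earlier results of these arrays known, so their counts are a description. The lineage list gave 2 of the 15, FMA and SPCH. Of 13 genes of dehydration and cold response, LTI30 rose and 0 fell. The median difference of this list was 0.95, against -0.15 over all genes. It was 0.55 after cyclic loess and 0.71 after quantile normalization, against -0.04 and -0.07. Of all genes, 6318 were near the background in both groups and stay in the all-gene values given beside the lists. The median of the other 6351 genes was 0.10, against 0.98 for the 11 such genes of this list. As deposited, 11 of 13 were above 0, against 36.2% of all genes. All 3 middle arrays lay above all 3 early arrays in 9 of the 13, as they did in 10.3% of all genes. AT2G46140, listed as LEA27, a late embryogenesis abundant protein, read 5.63, 2.72 and 4.0 against 7.47, 7.43 and 7.35. Its difference of 3.30 (SE 0.69) did not pass (adjusted p = 0.086, limma) while it did in the 15-array model (0.00502). COR47, a dehydrin, read 9.46, 9.33 and 10.42 against 11.20, 11.28 and 11.39 (1.55, SE 0.31, adjusted p = 0.0771). The early arrays of both genes varied by more than their middle arrays.

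Of the autophagy genes, 1 passed. APG8A, a ubiquitin-like protein of the ATG8 family that is joined to the autophagosome membrane, rose from near the background (2.36, 1.5 and 1.93) to 4.15, 3.77 and 3.79, at least 2.34-fold (adjusted p = 0.0263, limma). The list held 11 genes, and its median was 0.60, with 10 of 11 above 0 and 7 of 11 with the middle arrays above the early ones (10.3% of all genes). ATG8F read 6.71, 5.81 and 6.03 against 7.60, 8.29 and 7.82 (1.72, SE 0.30, adjusted p = 0.0568). ATG8E read 2.67, 2.82 and 4.50 against 5.13, 5.25 and 5.44 (1.94, SE 0.50, adjusted p = 0.126). ATG3, the conjugating enzyme of the ATG8 proteins, differed by 0.51 (SE 0.22, adjusted p = 0.269). The 15-array model called 3 of the 11 higher and 0 lower, against 4.42% and 4.71% of all genes.

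Among 22 glutathione transferases and aldehyde dehydrogenases, GSTU25 was the only call, and the list's median difference was 0.54. The median was 0.36 after cyclic loess. The middle arrays lay above the early ones in 7 genes and below them in 3 (10.3% and 21.7% of all genes). GSTU22 read 1.91, 1.73 and 3.30 against 5.25, 5.14 and 4.37 (2.61, SE 0.48, adjusted p = 0.0629, limma), and GSTU18 read 4.64, 5.94 and 7.33 against 8.16, 8.24 and 8.47 (2.33, SE 0.64, adjusted p = 0.144). Both had their highest early value in replicate 3. Of 51 UDP-glycosyltransferases, 2 rose, GT72B1 and UGT73B4. UGT73B4 read 4.62, 5.39 and 5.25 against 7.10, 7.11 and 6.98 (1.98, SE 0.23, adjusted p = 0.0202). The family had a median of -0.18, against -0.15 over all genes (-0.31 and -0.07 after quantile normalization). Without genes near the background in both groups, these medians were -0.13 and 0.10. The family had 17 members with the middle arrays below the early ones and 3 with them above (21.7% and 10.3% of all genes).

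Among the listed genes of division, few passed the test. Probe sets with no gene listed, 193 of the 362 calls, could not enter the lists. In the list of mitosis and cytokinesis, 3xHMG-box2 fell and 0 of 15 rose. The list's median was -0.45, against -0.15 over all genes (-0.71 and -0.07 after quantile normalization). BUB3.1, of the spindle checkpoint, read 6.42, 6.99 and 6.81 against 5.91, 5.98 and 5.64 (-0.90, SE 0.21, adjusted p = 0.103, limma). BUBR1, of the same checkpoint, read 3.38, 7.07 and 5.79 against 4.98, 3.47 and 5.17, and the AUR3 kinase read 2.34, 5.39 and 2.39 against 2.33, 2.59 and 2.89. Early replicate 2 thus held the highest value of both genes, and its level of TRY was high as well. KINESIN-12B, a motor of the phragmoplast, differed by -0.08 (SE 0.22). Of 9 genes of replication and histones, 0 passed, and the median of 0.33 turned to -0.01 after cyclic loess and to -0.04 after quantile normalization. The histone H2B gene HTB2 read 4.64, 6.14 and 5.19 against 7.32, 6.69 and 6.95 (1.67, SE 0.40, adjusted p = 0.115), and the replication licensing gene PRL read 2.07, 1.86 and 2.27 against 2.89, 3.30 and 3.72 (1.24, SE 0.25, adjusted p = 0.0807). Together with HTB4 and HTB11 these 4 genes had all middle arrays above all early arrays, as had 10.3% of all genes, and were called higher by the 15-array model, as were 4.42% of all genes.

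The 13 chromatin genes had a median of -0.50, against -0.15 over all genes (-0.31 and -0.04 after cyclic loess), with 3xHMG-box2 again the only call. Middle arrays lay below the early ones in 5 and above them in 0, as they did in 21.7% and 10.3% of all genes. CHR23, a chromatin remodeller of the SWI/SNF class, read 6.85, 8.79 and 4.79 against 3.91, 2.52 and 3.64 (-3.46, SE 1.00, adjusted p = 0.155, limma). Its early arrays were all above its middle arrays but spread over 4 log2 units. Of 10 mitochondrion-encoded genes, nad9 fell and 0 rose, with a median of -0.47. nad4, also of complex I, read 9.01, 8.49 and 8.31 against 7.10, 7.55 and 7.19 (-1.33, SE 0.24, adjusted p = 0.0615), whereas nad5 differed by -0.02 (SE 0.18) and cox2 by 0.15 (SE 0.28). The mitochondrial transcripts thus did not shift by a common amount. Of 69 plastid-encoded genes, 0 passed, with a median of -0.22 as deposited, -0.47 after cyclic loess and -0.37 after quantile normalization.

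The photosynthesis list had 0 calls among 23 genes and a median of 0.36, which turned to -0.05 after cyclic loess. Its early values were uneven, with SBPASE, a Calvin cycle enzyme, at 4.03, 3.65 and 6.95 against 6.70, 6.78 and 6.56 in middle precursors. Expansins and xyloglucan-modifying enzymes (29 genes) had 1 rise, EXLA1, an expansin-like protein. It read 2.66, 3.08 and 2.50 against 4.80, 5.55 and 4.89, a 5.03-fold rise (adjusted p = 0.019, limma). EXPB3, a beta-expansin, read 4.76, 7.04 and 8.14 against 3.16, 4.44 and 4.14 (-2.73, SE 0.87, adjusted p = 0.18). The wall-loosening family thus held members at both ends, and only the rise passed.

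Among transcription factor families, bHLH115, a regulator of the response to iron deficiency, was the only call of 37 genes. It read 2.79, 2.69 and 2.63 against 3.74, 3.62 and 4.14 (1.13, SE 0.18, adjusted p = 0.0475, limma), close to the threshold. Of the 14 alternative settings, bHLH115 passed only in the 15-array model (0.028). WRKY6, a factor of senescence and defence, read 4.61, 4.34 and 5.22 against 6.04, 6.73 and 6.69 (1.76, SE 0.31, adjusted p = 0.0559). Of 32 genes of jasmonate, wound and pathogen response, ATLP-1 fell and 0 rose, with a median of -0.10 (-0.06 after quantile normalization). WES1 was the only call of 17 auxin and brassinosteroid genes, and DPE1, the disproportionating enzyme of starch breakdown, was the only call of 23 genes of sugar transport and starch. DPE1 read 2.90, 2.42 and 2.85 against 4.46, 4.79 and 4.58, a 3.70-fold rise (adjusted p = 0.0147). Of 13 genes of ubiquitin conjugation, UBC22 fell and 0 rose, and UBC20, a cell cycle-linked enzyme of the same family, read 7.48, 7.43 and 7.77 against 5.87, 6.18 and 6.59 (-1.35, SE 0.23, adjusted p = 0.0526). Genes of tubulin and actin (17), wall synthesis and pectin (17), heat shock and folding (9) and photorespiration and the Calvin cycle (3) gave 0 calls. The members named beside the calls in these list paragraphs were picked out after their values were seen.

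**Figure D4:**
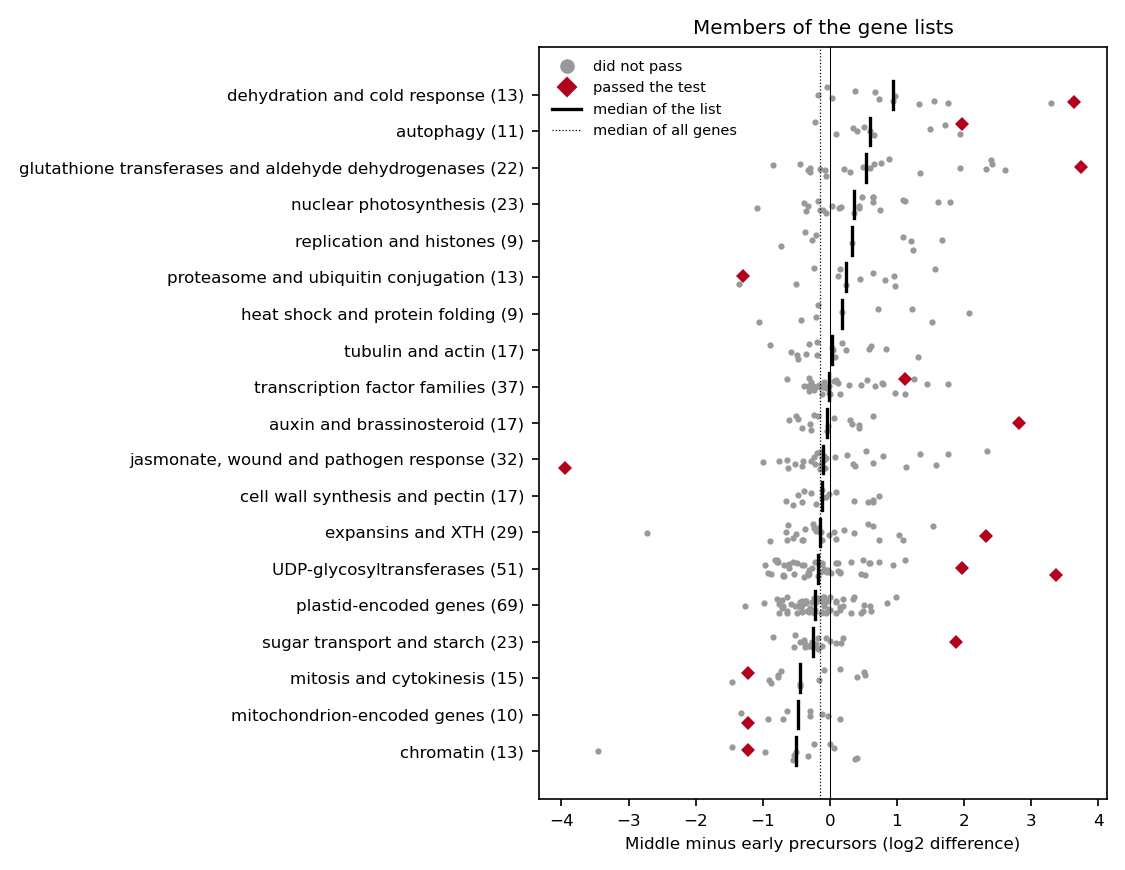
Log2 difference, middle minus early precursors, of each measured gene of the 19 lists with 9 or more genes (number in brackets). Grey points did not pass, red diamonds passed, thick bars are list medians and the dotted line is the median of all 12669 genes. Points right of 0 make up 84.6% of the dehydration list and 90.9% of the autophagy list. They make up 52.9% to 69.2% in the lists of ubiquitin conjugation, photosynthesis, glutathione transferases, replication, heat shock and tubulin. Of all genes, 36.2% lie right of 0.

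The levels of these genes were also read in the other sorts. The early and middle arrays chose the genes, so the levels are given as a description with no test. The 318 higher probe sets had medians of 3.56 in early, 5.73 in middle and 5.94 in late precursors, with 5.91 for mature guard cells and 5.04 for the epidermis. The 44 lower ones had medians of 6.96 in early and 4.21 in middle precursors, and 3.5, 3.5 and 3.54 in the last 3. FMA averaged 10.11 in late precursors, where its transgene can add signal. Its mean was 7.23 for mature guard cells and 3.19 for the epidermis. WES1 averaged 5.81 ± 0.03 (SD, n = 3) in middle and 4.40 ± 0.89 in late precursors, and AT1G68500 averaged 9.48 ± 0.16 and 8.38 ± 0.42. GT72B1 averaged 6.07 ± 0.36 in middle and 7.67 ± 0.29 in late precursors, and AT4G02940 averaged 6.90 ± 0.18 and 9.62 ± 0.28. The late means were thus below the middle ones for the first pair of genes and above them for the second. SPCH and ATLP-1 averaged 2.31 and 2.20 in late precursors, and 3xHMG-box2 5.73, so that its level in middle precursors lay between those of early and late precursors.

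**Figure D5:**
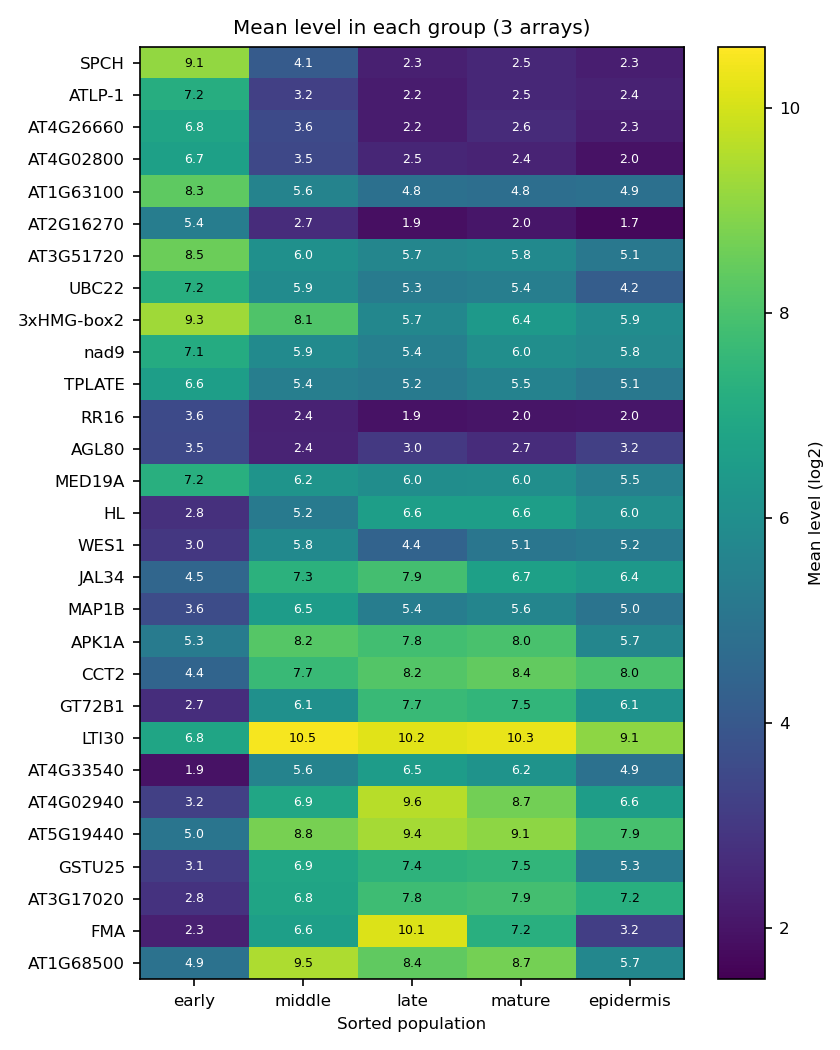
Mean log2 level over 3 arrays (colour and number) of the rises and falls named by size, with rows for genes and columns for the 5 populations. Falls, from SPCH to MED19A, are highest in early precursors, and rises, from HL to AT1G68500, are lowest there.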

How the data were processed

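Per the labels' protocols, RNA of sorted protoplasts was purified with the RNeasy Micro Kit, amplified (Ovation Pico WTA System) and biotin-labelled (Encore Biotin Module). Per the submitters' processing notes, the authors used RMA and the affy package, with versions not given, and deposited 1 normalized log2 value per probe set and array. No header states the log base, which rests here on RMA and on the span of the values, 1.11 to 13.4. With 3 arrays a group, replicate number limits the precision. The genome build is not given in the sources used here, so no coordinates are printed.

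The comparison was fitted with limma 3.58.1 in R 4.3.3 on the 6 arrays alone, because the early arrays vary more than those of the other groups, with empirical Bayes, two-sided tests and Benjamini-Hochberg adjustment over 20956 probe sets at 0.05. Errors of differences are standard errors (SE). Fits were tested on simulated data. GEO's platform annotation lists 1 gene for 12783 probe sets, several for 37 and none for 8136. Of the 12783, 12764 were found in RefSeq's gene table of TAIR10.1, from which symbols were taken. Each gene is represented by its brightest probe set. Pathway lists (30) were matched on locus, symbol or name, 16 wrong matches were dropped, and 2 lists had no measured gene.

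Genes named are up to 10 rises and 10 falls by size among called genes with a symbol and no overlap between groups, 5 and 5 among genes known by locus only, up to 4 called each way per list, and every measured gene of the lineage, guard cell, trichome, vasculature and meristem lists. Others are said to be picked out. The members and lists were chosen with earlier results of these data known. Alternatives were another set of arrays, weights, normalizations, a filter, another prior, a replicate block and each array left out.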

Additional observations from a re-analysis of the deposited data

How the results depend on the processing

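All 362 calls kept their direction in all 14 alternatives that tested them (361 were tested under the filter on dim probe sets). Only cyclic loess and quantile normalization could have turned a direction. The groups did not overlap for any call, and the other settings kept, left out or weighted the same values. The number of calls depended on the setting, and the causes were not tested. The count was 1991 in the 15-array model (1146 higher, 845 lower), which shared 346 of the 362. It was 651 there with 1 weight per group (490 and 161), 237 after cyclic loess (174 higher), 195 after quantile normalization (152 higher) and 162 with a mean-variance trend and robust prior (142 and 20). With the replicate number as a block it was 0 (0 higher, 0 lower), with 3467 probe sets at an unadjusted p under 0.05 and a lowest adjusted p of 0.0695. The labels do not say whether a replicate number marks a shared culture or day. Deviations from the group means correlated at 0.0061, 0.0043 and 0.049 for replicates 1, 2 and 3, so no common shift by number was seen. With 3 arrays a group, these correlations cannot settle whether the arrays were paired. Array weights gave 315 calls and the filter on dim probe sets 386 of 10196. Leaving out 1 array gave 1 to 959 calls, 0 to 739 higher and 1 to 220 lower. Called list genes, 15 in the main setting, numbered 67 in the 15-array model, 24 with 1 weight per group, 0 with the replicate block and 1 to 36 with 1 array left out. Of the 34 named calls, 32 passed in the 15-array model, 29 after cyclic loess, 28 after quantile normalization and 0 with the block. With array weights 26 passed, with 1 weight per group 25, with the filter 26 and with the trend and robust prior 25. Without early replicate 1, 2 or 3, 21, 26 or 29 passed, and without middle replicate 1, 2 or 3, 5, 4 or 1 passed, the last being SPCH. AT1G22690 ranged from -0.09 without early replicate 3 to 2.27 without early replicate 1. PHV, at -0.16, turned to 0.02 after cyclic loess, and with 1 array left out ranged from -0.38 (middle replicate 1) to 0.01 (middle replicate 2). None of these reversed values was a call. MUTE and CHX20 passed in the 15-array model (adjusted p = 0.0461 and 0.0307, limma). With 1 weight per group in that fit they did not (0.195 and 0.103), nor in any other alternative that tested them. Signal near the background limits what can be said of MUTE, STOMAGEN, AT4G14480, PHV and CLV3.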
